A study of Homo sapiens with 2 samples.

Results

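Genes of homologous recombination, the Fanconi anaemia pathway, mismatch repair and DNA break repair were compared between analogue 3-treated and DMSO-treated CL1-5 cells. The set held 47 named genes, taken by name from the pathways with earlier results of these data known. The array's annotation names 19775 genes through a probe set with exactly 1 gene symbol. Of the 47, 42 had such a probe set (98 probe sets in all), while BRCA2, FANCA, FANCD2, RBBP8 and PMS2 had none and have no value here. Another 4 probe sets carried a member's symbol together with that of another gene and were left out.

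Homologous recombination copies an intact sister strand to repair a broken or collapsed replication fork, and so acts mainly in S and G2 phase. The Fanconi proteins recognise DNA crosslinks that block forks and hand the lesion over to recombination. End joining religates broken ends in any phase of the cell cycle, mismatch repair corrects replication errors, and the kinases ATM and ATR signal breaks and stalled forks to CHEK2 and CHEK1. Many recombination and Fanconi genes are known to be transcribed most strongly around S phase, driven by E2F factors.

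CL1-5 is an invasive human lung adenocarcinoma line. For 24 h, one culture received 0.11 µM analogue 3, an analogue of the natural product desmosdumotin C that carries iodo, propyl and methoxy groups, and the other received DMSO (0.05 µg/mL in the labels' protocol). Each culture gave 1 Affymetrix Human Genome U133 Plus 2.0 array, so no difference below has a replicate check, a test or a p-value. The comparison asked which transcripts differ after treatment at a dose equal to the ED50 stated by the submitters.

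Intensities below are linear and are multiples of the array median, which was 1 on both arrays. Values under 8 (log2 3, the floor) were raised to it, a probe set was taken as measured if it reached the floor with either treatment, and a gene was represented by its brightest probe set. A fold with a DMSO value below the floor is a bound, written "at least". The only error visible here is how far probe sets for the same gene disagree, which had an SD of 0.23 on the log2 scale over 2874 genes and leaves out culture and hybridisation error. Intensity depends on the probes as well as on the transcript, so levels of different genes are not compared. Hybridisation spikes differed by between -0.14 and 0.17 (log2) between the arrays. For ACTB the 3′ probe set exceeded the 5′ probe set by 10.0-fold after analogue 3 and by 11.8-fold after DMSO, and for GAPDH by 1.18-fold and 1.21-fold. Of 7 genes listed as carcinoma or epithelial markers, KRT8, KRT18 and VIM were measured, and VIM is a mesenchymal filament gene and not specific to epithelium. KRT7, KRT19, EPCAM and CDH1 lay under the floor on both arrays. All leukocyte and fibroblast markers lay under the floor on both arrays, and of 6 endothelial markers 1, PECAM1, was measured, at 15.7 with analogue 3 and 11.4 with DMSO.

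Repair genes were 2-fold higher with analogue 3 more often than genes at large, and 10 of the 15 that passed 2-fold belonged to recombination or the Fanconi pathway. Of 36 measured members, these 15 (41.7%) were at least 2-fold higher and 0 were lower by that much. Among all 8523 measured genes, 3.74% were at least 2-fold higher and 3.92% at least 2-fold lower. The median log2 difference was 0.70 over the members and -0.05 over all measured genes. Of the 36, 5 were measured only on the analogue 3 array and could not have come out lower. Over the 31 members that reached the floor with both treatments, 11 were at least 2-fold higher, against 3.79% of the 7737 genes so measured. The plot of both arrays' intensities shows the rightward shift of most recombination genes. Over all measured members, 28 lay above 0 and 8 below, against 3789 and 4730 of all measured genes.

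**Figure D1:**
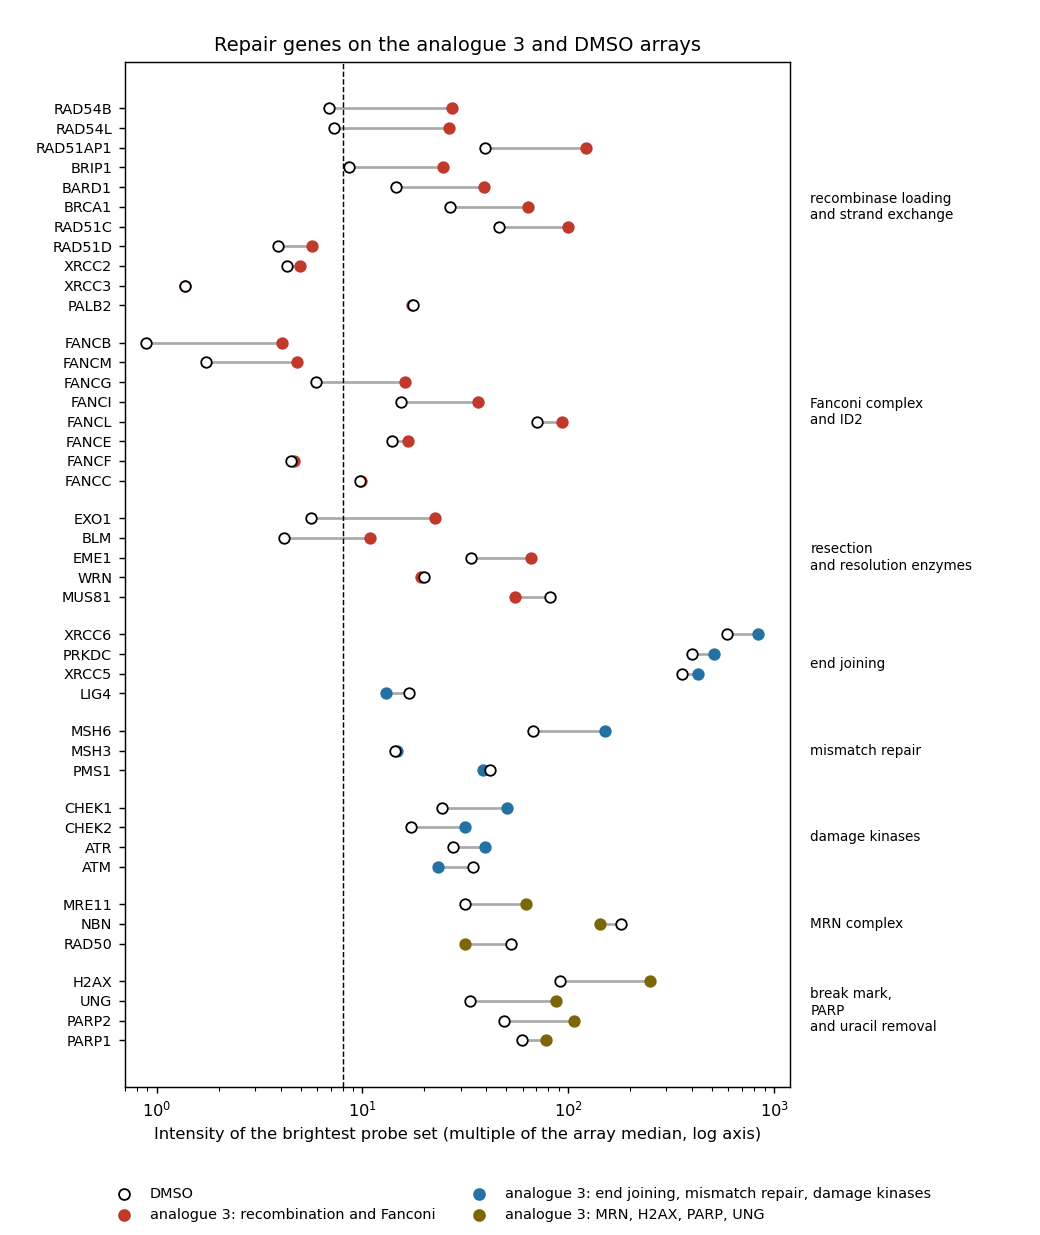
Intensity of the brightest probe set of each of the 42 repair genes with a probe set, on a log axis in multiples of the array median, with DMSO as open circles and analogue 3 as filled circles coloured by pathway arm; the dashed line is the floor of 8. Genes such as RAD51AP1 (121 against 39.6) lie well to the right of their DMSO value, whereas RAD50 (31.4 against 52.4) and MUS81 (55.2 against 81.1) lie to the left.

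The genes that load the recombinase and carry out strand exchange were mostly higher. Of 12 such genes, 11 had a probe set and 8 were measured, and 7 of these were at least 2-fold higher, with a group median of 1.47 (log2). Of the 6 measured on both arrays, 5 were at least 2-fold higher. RAD51AP1, whose product helps the recombinase invade the sister strand, had an intensity of 121 with analogue 3 and 39.6 with DMSO, or 3.06-fold higher. The motor proteins that remodel the recombinase filament differed by a like amount. RAD54B was 27.1 against 6.90, or at least 3.39-fold higher. RAD54L was 26.3 against 7.31, or at least 3.28-fold higher. The DMSO value of both lay just under the floor, and without the floor their log2 differences were 1.97 and 1.84.

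The BRCA1 complexes were split. BRCA1, the breast cancer gene that promotes end resection and recombinase loading, was 63.4 with analogue 3 and 26.7 with DMSO, or 2.38-fold higher. BARD1, its obligate partner in a ubiquitin ligase, was 38.9 against 14.6, or 2.66-fold higher, with log2 differences of 1.41 and 1.43 in its measured probe sets. BRIP1, the helicase that binds BRCA1, was 24.7 against 8.58, or 2.88-fold higher. BRCA1, BARD1 and BRIP1 thus lay within 0.28 of each other on the log2 scale. PALB2, which bridges BRCA1 to BRCA2, was 17.5 against 17.6, a log2 difference of -0.01, and differed from BRCA1 by 1.26. RAD51C, a paralogue of the recombinase, was 99.9 against 46.1, or 2.17-fold higher, and its other probe set gave 41.0 against 24.9, a log2 difference of 0.72, which is under 2-fold. The remaining paralogues were too dim for a fold on these arrays: RAD51D was 5.69 and 3.88, XRCC2 4.96 and 4.29, and XRCC3 1.37 on both.

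Since most of these genes were higher together, their promoters were searched for the E2F-type motif, meaning TTCCCGC or TTCGCGC or TTGGCGC or TTGCCGC on either strand. The RefSeq promoter windows (GRCh38.p14) run from 250 bases before to 50 bases after a transcription start and were at hand for 41 of the 47 members, in 60 windows, since some genes have several starts. Printed are windows of the 5 recombination and Fanconi genes with the largest differences among those with a window. Beside them stand the windows of MUS81 and RAD50, the genes with the lowest differences in the resection group and in the whole set. The E2F-type match in these windows is in capitals. They lie at chr12:4538640-4538939 (RAD51AP1, plus strand), chr1:46247438-46247737 (RAD54L, plus), chr17:61863479-61863778 (BRIP1, minus), chr2:214809634-214809933 (BARD1, minus), chr1:241847954-241848253 (EXO1, plus), chr11:65860183-65860482 (MUS81, plus) and chr5:132556727-132557026 (RAD50, plus), each read 5′ to 3′ along the gene. For RAD54L and EXO1 the first of the listed windows is shown, and the second EXO1 window holds no match. RAD54B and FANCI, also at least 2-fold higher, had no window. BRCA1, RAD51C and FANCG, likewise at least 2-fold higher, are not printed, and RAD51C held no match.
RAD51AP1: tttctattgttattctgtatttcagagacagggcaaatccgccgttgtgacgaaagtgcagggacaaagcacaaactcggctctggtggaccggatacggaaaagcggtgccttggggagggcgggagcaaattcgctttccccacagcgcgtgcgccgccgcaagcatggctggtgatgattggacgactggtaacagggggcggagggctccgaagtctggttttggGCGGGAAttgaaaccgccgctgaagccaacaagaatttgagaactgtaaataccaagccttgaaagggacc
RAD54L: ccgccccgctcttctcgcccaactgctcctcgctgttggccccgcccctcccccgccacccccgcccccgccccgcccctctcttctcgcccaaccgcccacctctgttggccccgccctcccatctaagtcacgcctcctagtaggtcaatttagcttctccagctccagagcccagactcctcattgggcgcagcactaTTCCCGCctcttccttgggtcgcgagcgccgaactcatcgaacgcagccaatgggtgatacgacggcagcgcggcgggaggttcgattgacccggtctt
BRIP1: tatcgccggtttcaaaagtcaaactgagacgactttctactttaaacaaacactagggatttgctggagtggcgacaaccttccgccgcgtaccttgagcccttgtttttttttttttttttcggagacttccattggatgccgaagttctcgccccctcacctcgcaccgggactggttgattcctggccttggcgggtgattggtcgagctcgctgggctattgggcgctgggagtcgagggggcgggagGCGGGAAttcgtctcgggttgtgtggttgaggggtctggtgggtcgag
BARD1: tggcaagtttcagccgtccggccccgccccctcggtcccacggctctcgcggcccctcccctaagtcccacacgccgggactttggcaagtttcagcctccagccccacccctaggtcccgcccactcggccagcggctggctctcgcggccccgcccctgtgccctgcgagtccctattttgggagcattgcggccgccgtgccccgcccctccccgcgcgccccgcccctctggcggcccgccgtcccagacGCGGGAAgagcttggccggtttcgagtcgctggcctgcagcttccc
EXO1: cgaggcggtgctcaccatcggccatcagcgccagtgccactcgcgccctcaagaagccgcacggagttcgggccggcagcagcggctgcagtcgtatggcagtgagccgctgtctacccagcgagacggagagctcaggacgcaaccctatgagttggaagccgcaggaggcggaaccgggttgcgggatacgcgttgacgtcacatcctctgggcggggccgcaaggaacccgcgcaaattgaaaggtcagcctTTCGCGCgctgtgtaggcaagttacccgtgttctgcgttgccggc
MUS81: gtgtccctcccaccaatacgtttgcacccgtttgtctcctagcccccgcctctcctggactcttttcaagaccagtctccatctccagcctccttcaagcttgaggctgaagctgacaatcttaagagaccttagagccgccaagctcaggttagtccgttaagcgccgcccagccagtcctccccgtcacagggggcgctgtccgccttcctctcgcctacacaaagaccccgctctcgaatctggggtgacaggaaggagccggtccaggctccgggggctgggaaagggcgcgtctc
RAD50: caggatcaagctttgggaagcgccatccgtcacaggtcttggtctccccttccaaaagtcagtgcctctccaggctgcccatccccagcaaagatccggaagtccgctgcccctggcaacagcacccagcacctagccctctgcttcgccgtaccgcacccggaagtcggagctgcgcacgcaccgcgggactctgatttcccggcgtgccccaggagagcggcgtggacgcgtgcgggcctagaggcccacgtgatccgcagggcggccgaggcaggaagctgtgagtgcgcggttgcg

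Each of the 5 windows of the higher genes held 1 match, starting from 49 bases before the transcription start (RAD54L) to 5 bases after it (EXO1), and the MUS81 and RAD50 windows held none. Over the recombination and Fanconi arm, 65.6% of 32 windows held an E2F-type match. The share was 42.9% of 21 windows for end joining, mismatch repair and damage kinase genes. It was 20.1% of the 10409 windows of genes measured on these arrays and 13.0% of all 35116 windows. Windows of 1 gene can overlap, so shares by gene are given too. A match in some window was held by 72% of 25 recombination and Fanconi genes. It was held by 50% of 10 end joining, mismatch repair and damage kinase genes and by 26.4% of 7149 measured genes. The shares of both arms, by window and by gene, include genes with no measured value here, such as BRCA2, FANCB and PMS2. The sets compared are thus unlike in that respect. By gene, 10 of 13 members at least 2-fold higher and 9 of 17 members measured with a smaller difference held a match in some window. The motif did not follow the difference gene by gene. FANCC, PMS1 and MSH3 held a match and differed by 0.03, -0.13 and 0.03 (log2), whereas RAD51C, CHEK1 and H2AX held none and were at least 2-fold higher. Mitotic genes often carry a CHR-type motif, searched as TTTGAA on either strand. Here 6.25% of 32 recombination and Fanconi windows held it, against 10.5% of the windows of measured genes. By gene these CHR-type shares were 8% and 13.7%. Among members at least 2-fold higher the share went the other way, with 3 of 13 genes (23.1%) and 13.0% of windows. The CCAAT motif stood in 37.5% of recombination and Fanconi windows and in 61.9% of those of the end joining, mismatch repair and damage kinase genes. For measured genes it stood in 35.7% of windows. By gene these CCAAT shares were 44%, 80% and 44.1%. In 3 of the 60 member windows the CCAAT motif overlapped an E2F-type match. A match of letters describes the window only and shows no binding.

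Fanconi genes divided into a pair that was higher and a set with small differences. Of 10 listed genes, 8 had a probe set and 5 were measured, with a median of 0.40 (log2). FANCI, which forms with FANCD2 the clamp that is ubiquitinated at a crosslink, was 36.5 with analogue 3 and 15.3 with DMSO, or 2.38-fold higher. A further probe set gave a log2 difference of 1.29, and another, whose DMSO value lay under the floor, a bound of at least 1.21. FANCG, a scaffold of the core complex, was 16.1 against 5.95, or at least 2.01-fold higher, a bound that lies at the threshold. Other core complex genes differed less. FANCL, the ubiquitin ligase subunit that modifies the clamp, was 93.2 against 70.4, or 1.32-fold higher. FANCE was 16.7 against 13.9, or 1.20-fold higher, and FANCC 9.89 against 9.72, or 1.02-fold higher. The core subunit gene FANCB (4.05 against 0.885), the translocase gene FANCM (4.80 against 1.74) and FANCF (4.66 against 4.48) lay under the floor on both arrays, so no fold is given.

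Among resection and resolution enzymes, partners of the same nuclease lay on opposite sides of 0. EXO1, the exonuclease that resects break ends and also serves mismatch repair, was 22.5 with analogue 3 and 5.61 with DMSO, or at least 2.81-fold higher. BLM, the helicase that dissolves recombination intermediates, was 10.9 against 4.15, which gives a bound of at least 1.36-fold higher and a log2 difference of 1.39 without the floor. WRN, another helicase of the same RecQ family, was 19.3 against 19.8, a log2 difference of -0.04. EME1 and MUS81 encode the subunits of 1 structure-specific nuclease. EME1 was 65.7 against 33.8, or 1.94-fold higher. MUS81, the catalytic subunit, was 55.2 against 81.1, or 1.47-fold lower. The pair differed by 1.51 on the log2 scale, where the SD of a difference between a pair of probe sets was 0.32. Each of EME1, MUS81, BLM and WRN had a single measured probe set.

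**Figure D2:**
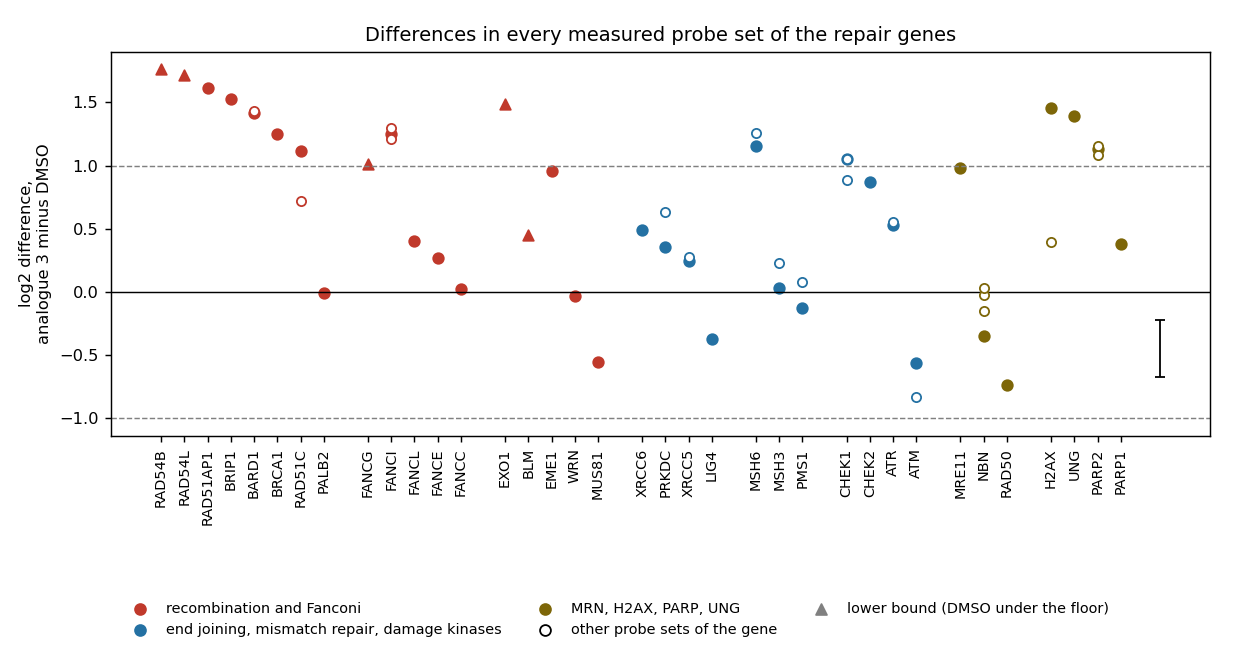
log2 difference, analogue 3 minus DMSO, in each measured probe set of the 36 measured repair genes, grouped by role; filled symbols are the brightest probe set, open circles the others, triangles brightest probe sets that give only a lower bound, dashed lines 2-fold and the bar at the right plus and minus 1 SD of a probe set (0.23). Values drawn for a probe set with DMSO under the floor, such as the lower ones of FANCI (1.21) and H2AX (0.40), are bounds, while those of BARD1 (1.41 and 1.43) and PARP2 (1.09 to 1.16) are measured on both arrays.

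End joining genes differed by less than 2-fold. All 4 were measured, none was 2-fold different and their median was 0.30 (log2). Of all measured genes, 3.74% were at least 2-fold higher and 3.92% at least 2-fold lower. None among 4 is near those shares and does not set these genes apart. XRCC6 and XRCC5 encode the Ku heterodimer that grips a broken end. XRCC6 was 831 with analogue 3 and 592 with DMSO, or 1.41-fold higher. XRCC5 was 425 against 359, or 1.18-fold higher. PRKDC, the kinase that Ku recruits, was 509 against 397, or 1.28-fold higher. Its other measured probe set, at 117 against 75.7, gave a larger log2 difference of 0.63. LIG4, the ligase of the pathway, was the exception in direction, at 13.0 against 16.8, or 1.30-fold lower.

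In mismatch repair the difference was confined, among the 3 measured genes, to MSH6. MSH6, which recognises base mismatches, was 150 with analogue 3 and 67.2 with DMSO, or 2.23-fold higher, and its other measured probe set gave a log2 difference of 1.26. MSH3, which replaces MSH6 in the complex that recognises larger loops, was 14.7 against 14.3, or 1.02-fold higher. PMS1 was 38.3 against 41.9, a log2 difference of -0.13, while its other measured probe set, with DMSO under the floor, gave a bound of at least 0.08. MSH6 and MSH3 thus differed by 1.13 (log2).

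Of the 4 damage kinases, 3 lay above 0 and ATM lay below. CHEK1, the effector of the stalled-fork branch, was 50.6 with analogue 3 and 24.4 with DMSO, or 2.07-fold higher, with log2 differences of 0.89 to 1.05 over 3 measured probe sets. CHEK2, the effector of the break branch, was 31.5 against 17.3, or 1.82-fold higher. ATR, which activates CHEK1, was 39.6 against 27.4, or 1.44-fold higher. ATM, which activates CHEK2, was 23.3 against 34.5, or 1.48-fold lower, and its other measured probe set gave -0.83 (log2). ATR and ATM differed by 1.09 and CHEK1 and ATM by 1.61 (log2), whereas CHEK1 and CHEK2 differed by 0.19.

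The MRN complex, which senses breaks, activates ATM and starts resection, held the widest gap among the partner pairs compared. MRE11, its nuclease, was 62.1 with analogue 3 and 31.5 with DMSO, or 1.97-fold higher. RAD50, the subunit that tethers the ends, was 31.4 against 52.4, or 1.67-fold lower, the lowest difference of any measured member. NBN, the subunit that recruits ATM, was 142 against 181, or 1.28-fold lower, with log2 differences from -0.35 to 0.03 over 4 probe sets. MRE11 and RAD50 differed by 1.72 and MRE11 and NBN by 1.33 (log2). No member of the complex was 2-fold different by itself. The comparisons between partners were chosen after the values were seen.

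Of the remaining genes, H2AX, UNG and PARP2 were at least 2-fold higher. H2AX, the histone variant phosphorylated around breaks, was 250.2 with analogue 3 and 91.0 with DMSO, or 2.75-fold higher. Its second measured probe set, at 10.5 against 5.55, gave a smaller bound of at least 0.40 (log2). UNG, which removes uracil from DNA, was 87.0 against 33.2, or 2.62-fold higher. PARP1 and PARP2 both mark DNA breaks with poly(ADP-ribose). PARP2 was 107 against 48.7, or 2.20-fold higher, with log2 differences of 1.09 to 1.16 over 3 probe sets. PARP1 was 77.9 against 59.9, or 1.30-fold higher, and lay 0.75 below PARP2 on the log2 scale.

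Set against each other, the recombination and Fanconi arm had the larger median difference. It comprised 28 genes for recombinase loading, the Fanconi pathway, resection and resolution, and the other arm 12 genes for end joining, mismatch repair and damage kinases. In the first arm 10 of 18 measured genes were at least 2-fold higher and the median was 1.06 (log2), or 2.09-fold. In the second, 2 of 11 were at least 2-fold higher (MSH6 and CHEK1) and the median was 0.36, or 1.28-fold. The medians differed by 0.70. Of the 10 genes, 4 (RAD54L, RAD54B, FANCG and EXO1) reached the floor only with analogue 3 and could not have come out lower, whereas all 11 genes of the second arm reached it with both treatments. The arms overlapped, since 5 genes of the first arm lay below the median of the second, and 1 gene of the second lay above the median of the first. Because 5 of the 18 genes were bounded by the floor on the DMSO array, the first arm was also described over the 13 genes measured on both arrays, of which 6 were at least 2-fold higher, with a median of 0.96 and a gap of 0.60 to the second arm, and over all 24 genes with a probe set without any floor, with a median of 1.18. With the higher floor of 32 (log2 5), the one used earlier on these data, the median was 0.68 over 8 genes and the arms differed by 0.35. Within the first arm the recombinase group accounted for 7 of the 10 genes past 2-fold and had a median of 1.47. With the floor of log2 3, the Fanconi group (0.40) and the resection and resolution group (0.45) had medians below that of the damage kinases (0.70). Over genes measured on both arrays the Fanconi median was 0.34 and the resection and resolution median -0.04. Without any floor they were 0.83 and 0.96, above the damage kinases (0.70), so this order depends on the floor. The 7 genes in neither arm (MRN, H2AX, PARP and UNG) had a median of 0.98, and 3 of them were at least 2-fold higher.

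**Figure D3:**
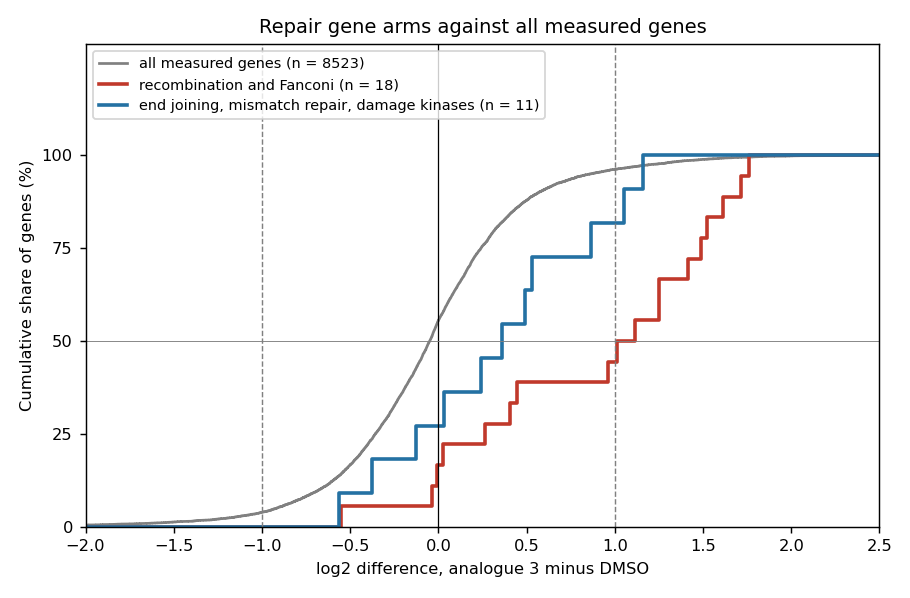
Cumulative share of genes (%) against the log2 difference, analogue 3 minus DMSO, for 18 measured recombination and Fanconi genes, 11 measured end joining, mismatch repair and kinase genes, and 8523 measured genes; dashed lines mark 2-fold. The curves cross 50% at medians of 1.06, 0.36 and -0.05.

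Other genes of the same pathways were listed by function, with earlier results of these data known. Their counts are to be read against the 3.74% of all measured genes that were at least 2-fold higher. Of 30 further recombination and Fanconi pathway genes, 19 were measured, 6 (31.6%) passed 2-fold upward, 0 passed it downward and the median was 0.41 (log2). UBE2T, the ubiquitin-conjugating enzyme that works with FANCL, was 195 with analogue 3 and 69.8 with DMSO, or 2.79-fold higher. RMI2, a partner of BLM, was at least 2.62-fold higher, and MCM8, a helicase subunit used in recombination, 2.55-fold. Of 20 further break signalling genes, 18 were measured and 4 (22.2%) were at least 2-fold higher, with a median of 0.41. TIMELESS and TIPIN, which form the fork protection complex, were 2.41- and 2.23-fold higher, and WEE1, the kinase that restrains CDK1, was 2.37-fold higher. Of 11 further end joining genes, 6 were measured and 1 (16.7%) was at least 2-fold higher, namely POLQ, the polymerase of the alternative pathway, with 17.9 against 5.78 and thus at least 2.24-fold.

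Genes that mark S phase were higher on the same array. All 10 of a short list (MCM2 to MCM7, PCNA, CCNE2, CCNA2 and TYMS), chosen with their values in these data already known, were at least 2-fold higher, with log2 differences from 1.32 to 2.11 and a median of 1.76. In total RNA of a whole culture, more cells in S phase and more RNA of these genes per cell cannot be told apart. The part of cell cycle state in the repair gene differences was not tested.

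**Figure D4:**
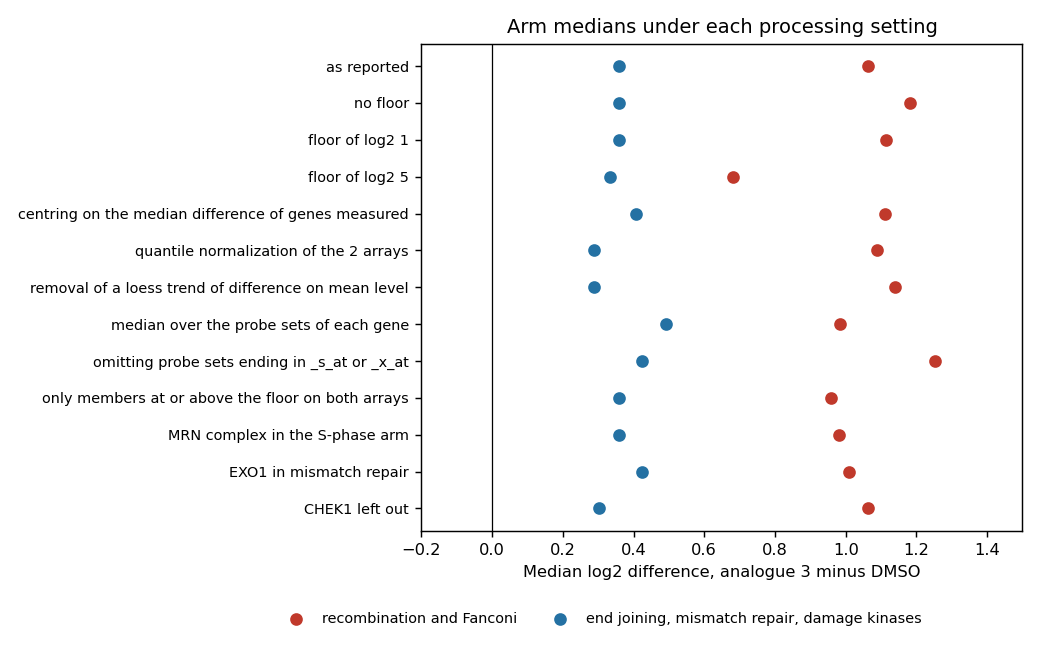
Median log2 difference, analogue 3 minus DMSO, of the recombination and Fanconi arm and of the end joining, mismatch repair and kinase arm under each processing setting, with the reported setting at the top. The first arm lies to the right of the second in every setting drawn, and the gap is narrowest with the floor of log2 5 (0.68 against 0.33).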

How the data were processed

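Total RNA from 2 CL1-5 cultures was hybridised to 1 array each. The deposited values are linear intensities of 54675 probe sets made by the authors with GCRMA, per the submitters' processing notes (its version is not given in the sources used here). A median of exactly 1 on each array points to a further scaling that no label states. GEO's platform annotation gave the gene names (41097 with 1 gene symbol, 1801 with several, 11777 not listed), and all 42 members with a probe set carried the current RefSeq symbol. Each gene was represented by the probe set with the highest mean log2 value. Values under log2 3 were raised to it and differences of 2-fold counted, with Python 3.11.15 and pandas 2.3.3, and the counting was tested on simulated data. The members, gene lists and floor were chosen with earlier results of these data known. The floor was lowered from the log2 5 used earlier because repair genes were taken to be of low abundance, which was not tested. At log2 5, 23 members were measured, against 36 at log2 3. All 47 members are accounted for, and of each other list up to 3 genes each way past 2-fold are named. Alternatives changed the floor, scaling (loess span 0.3 with statsmodels 0.14.6), probe set choice, fold and arm membership. With 1 array per group, the number of arrays limits every value.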

Additional observations from a re-analysis of the deposited data

How the results depend on the processing

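With a floor of log2 5, 6 of 23 measured members were at least 2-fold higher, against 3.47% of all measured genes, the median of the recombination and Fanconi arm was 0.68 and the arms differed by 0.35; this floor turns more differences into bounds against it. There BARD1, FANCI, CHEK1 and BRCA1 gave bounds under 2-fold (0.28, 0.19, 0.66 and 0.99). At 3-fold, 3 members were higher, against 0.845% of all measured genes. At 1.5-fold, 18 members were higher and 1, RAD50, was lower, against 9.60% and 12.9% of all measured genes. The other settings include the restriction to members measured on both arrays, which was chosen after seeing the data. Under them 10 to 18 members were at least 2-fold higher and none was 2-fold lower. The higher members made up 35.5% to 47.2% of those measured, against 2.40% to 4.27% of all measured genes. Of all measured genes, 3.21% to 5.25% were at least 2-fold lower in these settings. There the first arm's median ran from 0.96 to 1.25 and the second's from 0.29 to 0.49. Of 261 values of single members under the alternatives, 248 lay within 1 probe set SD of the reported value. Many of these values could not move, so this count does not measure stability. Removing or lowering the floor left a member unchanged if its DMSO and analogue 3 values had each reached log2 3. Taking the median of probe sets left a member with 1 measured probe set unchanged. Centring shifted every member by the same amount, which was smaller than that SD. BLM, EXO1 and FANCG gave larger differences without a floor (1.39, 2.00 and 1.44), and H2AX was under 2-fold with the median of its probe sets (0.93). No paired analysis was possible because each group has 1 array and the labels number no replicates. GCRMA's background step and the unstated scaling limit values near the floor.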

Other observations

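Repair of single damaged bases and of bulky adducts, which needs no sister strand, was listed by function as well. Of 33 base excision and nucleotide excision repair genes, 27 were measured, 1 was at least 2-fold higher and 1 was at least 2-fold lower, with a median log2 difference of 0.08. NEIL3, a glycosylase of base excision repair, was 16.8 with analogue 3 and 5.37 with DMSO, or at least 2.10-fold higher. GTF2H1, a subunit of the TFIIH complex that opens DNA for nucleotide excision and for transcription, was 43.3 against 88.0, or 2.03-fold lower. These shares are close to those of all measured genes (3.74% and 3.92%).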
